A study of Mus musculus with 6 samples.

Results

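The matrix metalloproteinases (MMPs), the ADAMs, the ADAMTS proteases with their ADAMTS-like relatives, and the TIMPs were followed in a mouse pre-osteoblast line, MC3T3-E1, which was derived from newborn calvaria. Members were taken by name, as every measured gene whose symbol is Mmp, Adam, Adamts, Adamtsl or Timp followed by a number. This gave 77 of the 17298 genes that could be named on the arrays, out of 85 such symbols in the RefSeq gene table. The 77 were 22 Mmp, 34 Adam, 15 Adamts, 2 Adamtsl and 4 Timp genes. Mmp27, Adamts3, Adamts6, Adamts9, Adamts14, Adamtsl1, Adamtsl3 and Adamtsl5 were not measured under a name here.

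Differentiated cells (3 arrays) had been grown with ascorbic acid (50 µg/mL) and glycerol-2-phosphate (10 mM) for 15 days, and undifferentiated cells (3 arrays) had not. All 6 cultures, in alpha MEM with 10% serum and at passages 5 to 12, were then exposed for 24 h to the hormonal form of vitamin D, 1,25(OH)2D3, at 100 nM, so every value below was measured in the presence of the hormone. The groups come from 1 cell line, and vehicle-treated cells were not analysed here. RNA of each culture was hybridized to 1 single-colour array, and the design text calls the 3 cultures of a group biological replicates.

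MMPs are secreted or membrane-bound zinc proteases that are made as inactive proenzymes and, between them, cut most proteins of the extracellular matrix. ADAMs sit in the membrane and release the outer parts of growth factors, cytokines and receptors, although many members expressed in testis or brain act in adhesion and some lack a working protease site. ADAMTS proteases are secreted, and several cut aggrecan and versican or process procollagen. TIMPs bind the active site of these enzymes and block it. In bone, MMP13 is the main collagenase of osteoblast-lineage cells in rodents, MMP14 and MMP2 act on collagen and on other MMPs, and MMP9 is typical of osteoclasts.

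The Mmp13 gene carries, close to its start, an AP-1 element and a RUNX element that are known from studies of its transcription in rodent osteoblasts, and most MMP genes that lie beside it on chromosome 9 carry AP-1 elements as well. The Mmp13 promoter window of RefSeq (assembly GRCm38.p6, chr9:7272264-7272563, plus strand) is printed because Mmp13 had the largest difference of the 77 genes. Capitals mark, in order, the RUNX letters ACCACA, which start at position −118, and the AP-1 letters TGANTCA, which start at position −35. Positions are counted from the annotated start site, with minus for bases before it.
Mmp13 promoter: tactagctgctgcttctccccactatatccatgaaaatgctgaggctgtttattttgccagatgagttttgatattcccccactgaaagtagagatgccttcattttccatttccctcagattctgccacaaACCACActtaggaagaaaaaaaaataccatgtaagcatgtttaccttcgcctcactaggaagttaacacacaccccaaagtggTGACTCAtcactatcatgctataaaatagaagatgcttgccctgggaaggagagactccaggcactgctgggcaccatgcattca

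The AP-1 letters of 7 neighbouring genes are printed beside those of Mmp13 because the neighbours share the letters and their measured differences were far smaller. Several of these neighbours lay near the random probes, as given below. Each line is a 30-base stretch read 5′ to 3′ on the strand of the gene, with the letters TGANTCA in capitals.
Mmp13, chr9:7272468-7272497, plus strand: ccccaaagtggTGACTCAtcactatcatgc
Mmp12, chr9:7347319-7347348, plus strand: gacatcaacagTGAGTCAgatagaggattt
Mmp1b, chr9:7388101-7388130, minus strand: gttacaaagccTGAGTCAtatagcctctgg
Mmp3, chr9:7445765-7445794, plus strand: ggaagcaattaTGAGTCAgttttcgggtga
Mmp1a, chr9:7464057-7464086, plus strand: gttgtcaaccaTGAGTCAcatagcctctgg
Mmp10, chr9:7502268-7502297, plus strand: tagcacccatgTGAGTCAtgcttagtgacc
Mmp20, chr9:7628125-7628154, plus strand: catttgagacaTGAATCAtcacttacaggg
Mmp7, chr9:7692016-7692045, plus strand: aagtgtgcaaaTGAGTCAcctatttccaca
The capitals start at position −44 in Mmp12, −93 in Mmp1b, −46 in Mmp3, −73 in Mmp1a, −63 in Mmp10, −95 in Mmp20 and −63 in Mmp7.

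Promoter windows of 250 bases before to 50 bases after a start were given for 48 of the 77 measured members, in 53 windows. TGANTCA, which reads the same on both strands, was present in 13 of these 53 windows (24.5%), against 7.81% of all 32851 windows of that length in the table. All 8 windows of measured MMP genes that held it belong to the chromosome 9 cluster, where it was in 8 of 12 windows, Mmp27 included, and 0 of the 9 windows of measured MMP genes elsewhere held it. Likewise, 0 of the 9 windows of ADAMTS and ADAMTS-like genes and 0 of the 4 TIMP windows held these letters. Of the 20 windows of measured ADAM genes 5 (25.0%) held them, in Adam19, Adam1b, Adam20, Adam25 and Adam29. ACCACA, searched on both strands, was in 11 of the 53 member windows (20.8%) and in 16.8% of all windows. AGGTCA, a half-site of nuclear receptors such as the vitamin D receptor and also searched on both strands, was in 10 of the 53 member windows (18.9%) and in 16.3% of all windows. Of the 8 members with a window that passed the test below, Mmp13 alone held TGANTCA and Mmp13 alone held ACCACA. These are letter matches in short windows, and binding of a factor was not measured.

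The arrays were similar in depth of signal. The median deposited intensity lay between 793.1 and 834.7 on a linear scale, and the control feature of random probes between 96.3 and 112.1. All levels below are log2 intensities, and all differences are differentiated minus undifferentiated on that scale. The control feature itself differed by 0.11. Pearson's r over all features was 0.9919 to 0.9958 within the differentiated arrays, 0.9792 to 0.9938 within the undifferentiated arrays and 0.9575 to 0.9784 between the groups. Undifferentiated replicate 3 stood apart from undifferentiated replicates 1 and 2, and without it 45% of all genes passed, so the main counts below are also given without single arrays. The file headers carry 1 image date per group, so image date and group cannot be told apart. Of 8 osteoblast markers 3 were higher in differentiated cells and 5 did not pass. Alpl, the bone alkaline phosphatase, differed by 3.70 ± 0.13 (SE), Bglap (osteocalcin) by 1.10 ± 0.19 (SE), and Col1a1 was among the brightest features in both groups, whereas Ibsp lay within 0.5 of the random probes in both groups.

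With limma and Benjamini-Hochberg adjustment over all 17298 genes, 9 members were higher in differentiated cells, 4 were lower and 64 did not pass at 0.05. The called share was 16.9% of the members, against 19.5% of all genes. Higher calls made up 11.7% of the members and 8.58% of all genes, and lower calls made up 5.19% of the members and 10.9% of all genes. The collagenase gene Mmp13 and the aggrecanase gene Adamts4 were the only members called with a change of 2-fold or more, where 3.57% of all genes were. Both were higher, which held for 1.27% of all genes, and 0 members were lower by that much, against 2.3% of all genes. The values of the groups did not overlap for 32 members (41.6%), against 40.1% of all genes. Without undifferentiated replicate 3 this held for 42 members (54.5%) and 65.8% of all genes. The median difference was 0.20 over the members and 0.08 over all genes. The difference was above 0 in 58 of the 77 members (75.3%) and in 59.4% of all genes. When each array was left out in turn, it was above 0 in 56 to 59 members and in 56.6% to 61.4% of all genes. The arrays measure RNA of whole cultures, in which fewer cells of a type and less RNA per cell cannot be told apart.

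**Figure D1:**
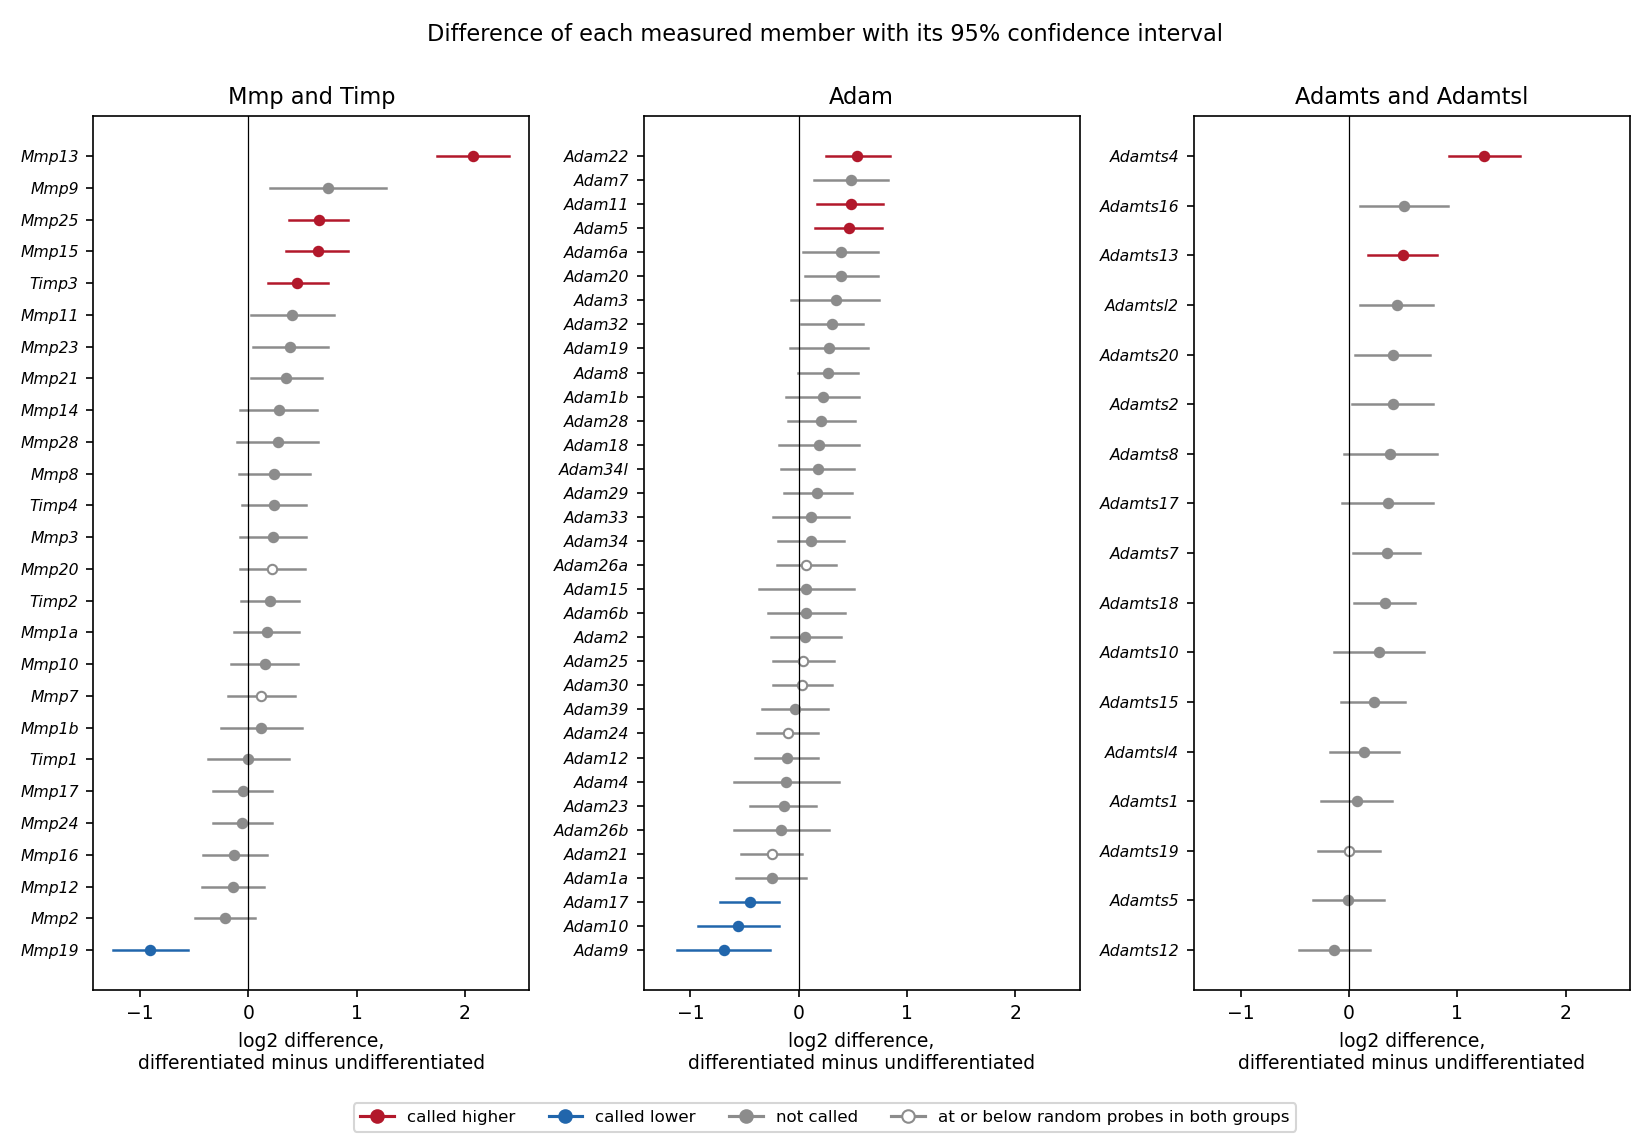
Differences (differentiated minus undifferentiated, log2 scale) of the 77 members by family, with 95% confidence intervals, and called members marked. Mmp13 at 2.07 and Adamts4 at 1.25 stand to the right of all others, and Mmp19 at −0.91 is the lowest.

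The share of calls that were higher depended on the scaling. It was 69.2% of the member calls as deposited, 88.9% after quantile normalization (8 higher, 1 lower), 87.5% after cyclic loess (7 higher, 1 lower) and 63.6% with equal array medians (7 higher, 4 lower). Over all genes it was 44.1%, 46.0%, 40.8% and 34.1% of the calls in the same order. Single arrays changed the counts of the members and of all genes alike. There were 4 higher and 1 lower without differentiated replicate 1, 5 and 1 without differentiated replicate 2, and 4 and 1 without differentiated replicate 3, fits in which 7.83%, 11.7% and 9.52% of all genes were called. There were 9 higher and 2 lower without undifferentiated replicate 1 (13.8% of all genes called) and 4 and 1 without undifferentiated replicate 2 (8.64%). There were 23 and 5 without undifferentiated replicate 3, where 24.8% of all genes were higher and 20.2% lower. Mmp13, Adamts4, Mmp19, Mmp25 and Mmp15 were called in all 6 of these fits, and the other 8 called members lost their call in at least 1 of them. Without undifferentiated replicate 3, 15 further members passed, and their values are given with their groups below.

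**Figure D2:**
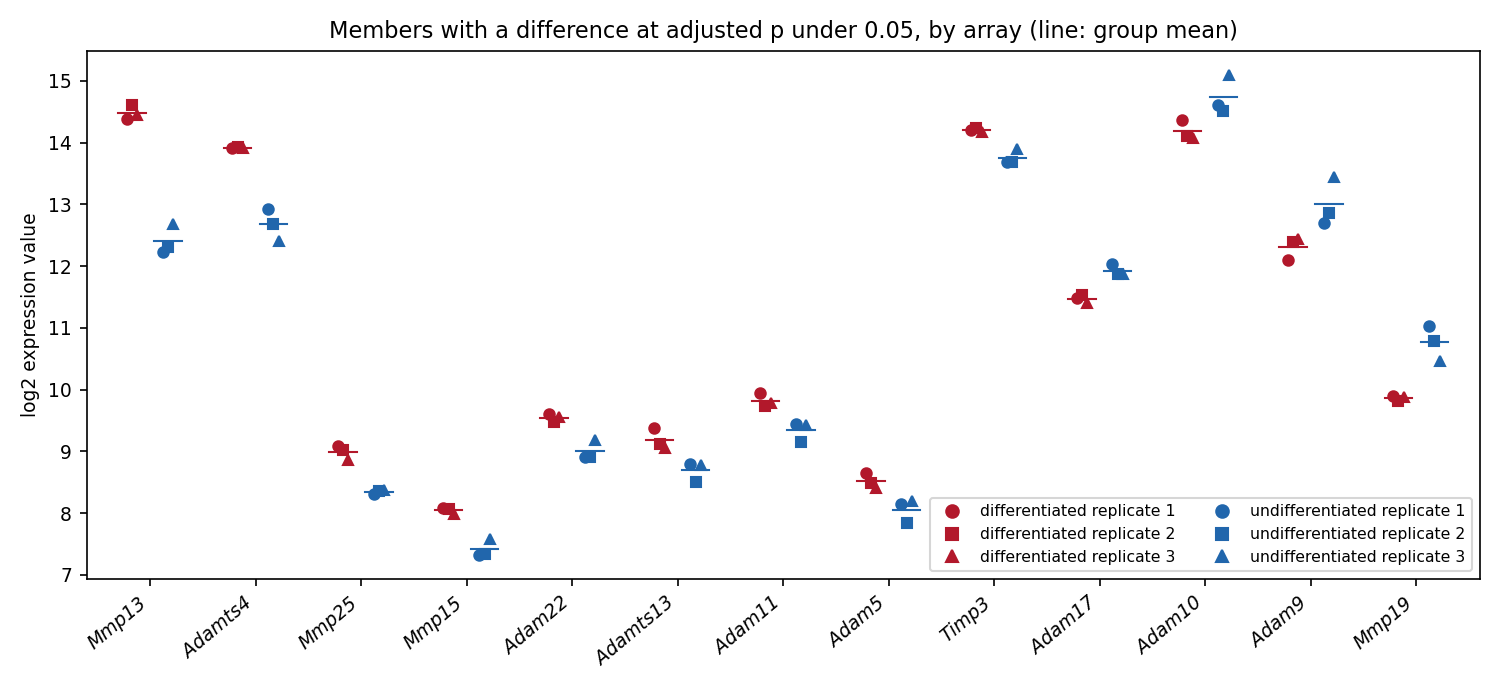
Log2 intensity of the 13 called members on each of the 6 arrays, differentiated left of undifferentiated, with a bar at each group mean. No called member has overlapping groups, and Mmp13 and Adamts4 show the widest gaps.

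Among the collagenases, which cut fibrillar collagen, Mmp13 was higher in differentiated cells and the other 3 genes did not pass. Mmp13 had log2 intensities of 14.38, 14.61 and 14.45 on the differentiated arrays, against 12.23, 12.31 and 12.68 on the undifferentiated arrays. The lowest differentiated array was thus above the highest undifferentiated one by more than the range within either group. The difference was 2.07 ± 0.15 (SE), with a 95% confidence interval of 1.74 to 2.41, or 4.21-fold, and an adjusted p of 1.04e-05. It passed in all 17 settings tried (other scalings, filters and model terms, and each array left out), with adjusted p between 6.43e-11 and 0.000317. Mmp8, the neutrophil collagenase, differed by 0.24 with an adjusted p of 0.268. Mmp1a and Mmp1b, the mouse relatives of human MMP1, averaged 6.74 and 7.02 in differentiated cells and 6.57 and 6.90 in undifferentiated cells, all within 0.5 of the random probes. Whether the probes tell these related genes apart was not checked, so their values are uncertain.

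In the reference gene order of chromosome 9 the cluster runs Mmp13, Mmp12, Mmp1b, Mmp3, Mmp1a, Mmp10, Mmp8, Mmp27, Mmp20, Mmp7. The 8 measured neighbours of Mmp13 had differences between −0.14 (Mmp12) and 0.24 (Mmp8), with a median of 0.16. In limma's fit 0 of 8 were called, against 19.5% of all genes. An unadjusted p under 0.05 was found for 0 of 8, against 6366 of all 17298 genes. The highest upper bound of the neighbours' 95% intervals was 0.57, for Mmp8, below the lower bound of 1.74 for Mmp13. Mmp20 and Mmp7 did not exceed the random probes in either group, so these genes have only an upper bound on their level. The AP-1 letters printed above are present in all of these neighbours except Mmp8 and Mmp27.

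**Figure D3:**
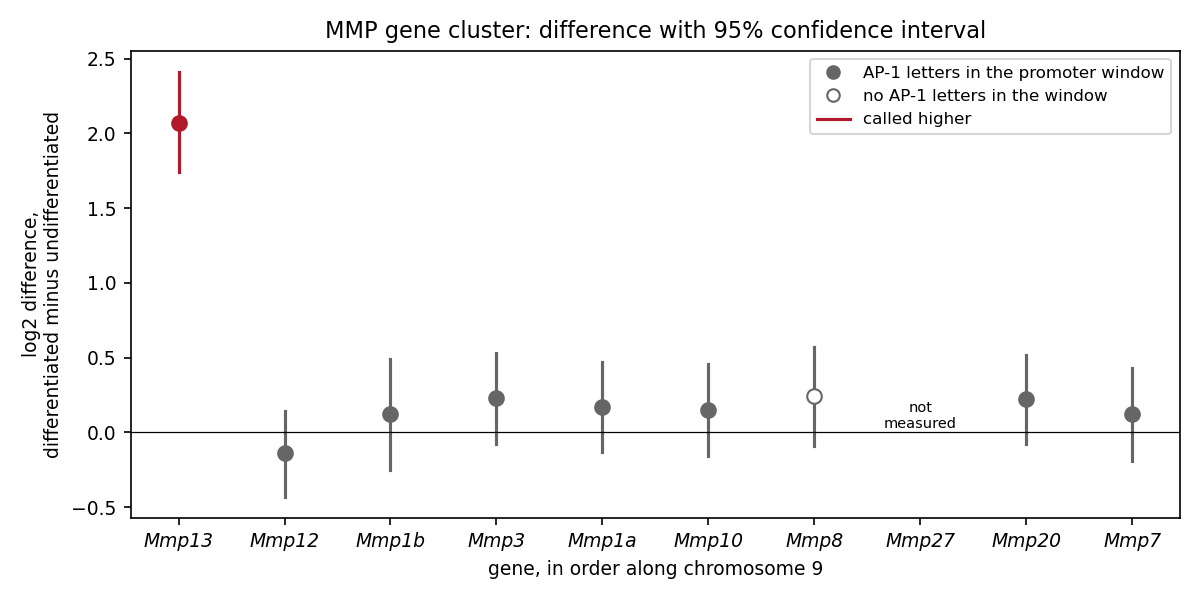
Differences (differentiated minus undifferentiated, log2 scale, 95% confidence intervals) of the MMP genes in their order on chromosome 9. Mmp13 stands at 2.07 and its 8 measured neighbours lie between −0.14 and 0.24.

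The gelatinases cut denatured collagen, and neither passed. Mmp2 had 14.96, 15.17 and 14.98 in differentiated cells, against 15.30, 15.24 and 15.22 in undifferentiated cells, a difference of −0.22 ± 0.12 (SE) with an adjusted p of 0.23. Its groups did not overlap, although the highest differentiated array and the lowest undifferentiated array were 0.05 apart. Mmp9 had 10.06, 10.19 and 10.98 in differentiated cells, against 10.05, 9.52 and 9.47 in undifferentiated cells, a difference of 0.73 ± 0.24 (SE) with an adjusted p of 0.0562. Differentiated replicate 3 was the highest Mmp9 array by a wide margin, and the lowest differentiated value met the highest undifferentiated one within 0.01. Mmp9 passed in 7 of 17 settings. Beside Mmp9 the macrophage and osteoclast markers are of interest: 1 of 6 measured was higher, Ctsk (cathepsin K) by 1.24, while Ptprc, Adgre1, Csf1r and Acp5 did not pass and Calcr was at or below the random probes on all arrays. Their summed linear intensity was 35765 to 40504 in differentiated cells and 14534 to 18252 in undifferentiated cells, most of it from Ctsk. All cultures were of 1 cell line, and whether they held any macrophages or osteoclasts was not tested.

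Membrane-type MMPs work at the cell surface. Of 6, 2 (33.3%) were higher in differentiated cells, against 8.58% of all genes. Both were also called with any single array left out, in fits that called 7.83% to 45.0% of all genes. Mmp25, which is held by a lipid anchor, had 9.09, 9.02 and 8.86 in differentiated cells, against 8.31, 8.35 and 8.37 in undifferentiated cells. Mmp15, a transmembrane relative of Mmp14, had 8.08, 8.07 and 7.99 in differentiated cells, against 7.32, 7.33 and 7.58 in undifferentiated cells. In both genes all differentiated arrays were above all undifferentiated ones, and for Mmp15 undifferentiated replicate 3 lay nearest to them. The differences were 0.65 ± 0.12 (SE) for Mmp25 (adjusted p 0.00576) and 0.64 ± 0.13 (SE) for Mmp15 (adjusted p 0.00778). Mmp25 passed in all 17 settings and Mmp15 in 15 of 16, failing only with the start of the array number as a covariate. All differentiated arrays share that start with undifferentiated replicate 3, so the fitted difference is then the differentiated mean minus that array alone. For Mmp15 it was 0.46. Mmp14, the activator of pro-MMP2, had 14.65, 14.55 and 14.69 in differentiated cells, against 14.64, 14.37 and 14.06 in undifferentiated cells. The highest undifferentiated value lay inside the differentiated range, and the difference of 0.28 ± 0.16 (SE) had an adjusted p of 0.229. Mmp16, Mmp17 and Mmp24 differed by −0.13, −0.05 and −0.06, and their groups overlapped.

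The stromelysins and the stromelysin-like Mmp11 cut proteoglycans, fibronectin and other matrix proteins. Of these, 0 of 3 were called, against 19.5% of all genes, although 1 had an unadjusted p under 0.05. Mmp11 had 12.54, 12.65 and 12.37 in differentiated cells, against 12.46, 12.08 and 11.81 in undifferentiated cells, with a difference of 0.40 ± 0.17 (SE) and an adjusted p of 0.118. Only undifferentiated replicate 1 reached into the differentiated range, and without it the adjusted p was 0.0321. Mmp3 differed by 0.23 and Mmp10 by 0.15.

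Mmp19, which cuts basement membrane proteins, was the one MMP that was lower in differentiated cells, among 7 further MMPs. It had 9.89, 9.81 and 9.88 in differentiated cells, against 11.03, 10.79 and 10.47 in undifferentiated cells. The differentiated arrays were within 0.08 of each other, and the undifferentiated ones spread over 0.56 and stayed above them. The difference was −0.91 ± 0.15 (SE), a 1.87-fold lower level, with an adjusted p of 0.00298 and a pass in all 17 settings. Mmp23, a membrane-anchored MMP, had 10.01, 10.01 and 10.19 in differentiated cells, against 9.56, 9.50 and 9.99 in undifferentiated cells (difference 0.38, adjusted p 0.101). Undifferentiated replicate 3 lay just under the differentiated arrays, and without it the adjusted p was 0.00322. Mmp12 (macrophage elastase), Mmp21 and Mmp28 differed by −0.14, 0.35 and 0.27 and did not pass. Mmp7 and Mmp20 lay at the random probes.

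The ADAMs with a protease site that act in somatic tissues include the main sheddases of the cell surface. Of these 9, 3 (33.3%) were lower in differentiated cells and 0 were higher, against 10.9% and 8.58% of all genes. Without single arrays 0 were lower in 4 of the 6 fits, 1 without undifferentiated replicate 1, and 3, with 1 higher, without undifferentiated replicate 3. In that last fit 20.2% of all genes were lower and 24.8% higher. The 3 lower ones were Adam10, which cuts Notch receptors and cadherins, Adam17, which releases tumour necrosis factor and ligands of the epidermal growth factor receptor, and Adam9. Adam10 had 14.36, 14.11 and 14.08 in differentiated cells, against 14.61, 14.51 and 15.10 in undifferentiated cells. Adam17 had 11.49, 11.53 and 11.40 in differentiated cells, against 12.03, 11.88 and 11.87 in undifferentiated cells. Adam9 had 12.10, 12.39 and 12.44 in differentiated cells, against 12.70, 12.86 and 13.44 in undifferentiated cells. The groups did not overlap for any of these genes, and undifferentiated replicate 3 was the highest array for Adam10 and Adam9.

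The differences were −0.56 ± 0.17 (SE) for Adam10 (adjusted p 0.0433), −0.45 ± 0.12 (SE) for Adam17 (adjusted p 0.0283) and −0.69 ± 0.19 (SE) for Adam9 (adjusted p 0.0306). All 3 calls ended under quantile normalization, with adjusted p of 0.0873, 0.06 and 0.0735 for Adam10, Adam17 and Adam9, and under cyclic loess, with 0.102, 0.0563 and 0.0864. Over the 17 settings the sign did not change, and Adam10 passed in 10, Adam17 in 9 and Adam9 in 11. Without undifferentiated replicate 3, where 45% of all genes passed, the adjusted p was 0.0291 for Adam10, 0.00618 for Adam17 and 0.0116 for Adam9. Without differentiated replicate 2 it was 0.124, 0.0729 and 0.0709. Adam19, an ADAM with roles in heart development, had 11.03, 11.31 and 11.26 in differentiated cells, against 10.92, 10.63 and 11.20 in undifferentiated cells. It overlapped between groups, differed by 0.28 (adjusted p 0.231), and had an adjusted p of 0.0219 without undifferentiated replicate 3. Adam8, Adam12, Adam15, Adam28 and Adam33 differed by 0.27, −0.11, 0.07, 0.21 and 0.11 and did not pass.

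Adam11, Adam22 and Adam23 are best known from the nervous system, where Adam22 is a receptor of the secreted protein LGI1, and they lack a protease site. Adam22 had 9.61, 9.47 and 9.55 in differentiated cells, against 8.90, 8.91 and 9.18 in undifferentiated cells. Adam11 had 9.94, 9.74 and 9.78 in differentiated cells, against 9.45, 9.15 and 9.43 in undifferentiated cells. Both were higher on every differentiated array, by 0.54 ± 0.13 (SE) for Adam22 (adjusted p 0.0178) and 0.48 ± 0.14 (SE) for Adam11 (adjusted p 0.0351). Adam22 passed in 12 of 17 settings and Adam11 in 10. With the array number covariate, which leaves undifferentiated replicate 3 as the only comparison, the differences were 0.36 and 0.39, and both calls were lost. A dimmer feature of Adam22 differed by 0.45, with an adjusted p of 0.129 over all features, and its groups overlapped. Adam23 differed by −0.14 and did not pass.

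The remaining 22 ADAMs are known mostly from testis, sperm or epididymis, and 1 was called (4.55%, against 19.5% of all genes). Adam5 had 8.65, 8.49 and 8.41 in differentiated cells, against 8.14, 7.84 and 8.19 in undifferentiated cells, with a difference of 0.46 ± 0.14 (SE) and an adjusted p of 0.0452. It passed in 6 of the 16 settings in which it was fitted. Adam7 had 9.98, 9.64 and 9.77 in differentiated cells, against 9.38, 9.07 and 9.51 in undifferentiated cells, with a difference of 0.48 ± 0.15 (SE) and an adjusted p of 0.0521. The differentiated arrays of both genes lay above the undifferentiated ones. Of the 22, 5 (Adam21, Adam24, Adam25, Adam26a and Adam30) did not exceed the random probes in either group. Over all members this held for 8 of 77, against 4.6% of all genes.

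A further 3 genes of that kind would have passed without undifferentiated replicate 3. Adam1a had 8.96, 9.02 and 9.04 in differentiated cells, against 9.51, 9.26 and 9.01 in undifferentiated cells (adjusted p 0.231). Adam1b had 8.33, 8.13 and 8.40 in differentiated cells, against 8.02, 7.84 and 8.33 in undifferentiated cells (adjusted p 0.32). Adam3 had 7.58, 7.46 and 7.54 in differentiated cells, against 6.74, 7.33 and 7.49 in undifferentiated cells (adjusted p 0.202). Undifferentiated replicate 3 lay inside the differentiated range for all of them. The pairs Adam1a and Adam1b, Adam6a and Adam6b, Adam26a and Adam26b, and Adam34 and Adam34l are close copies whose probes may not tell them apart.

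Adamts4 stood out among the 6 proteoglycanases of the ADAMTS family, which cut aggrecan, versican and related proteoglycans: it was called and the other 5 were not. It had 13.92, 13.93 and 13.91 in differentiated cells, against 12.93, 12.69 and 12.41 in undifferentiated cells. The differentiated arrays lay within 0.02 of each other, and the undifferentiated ones spread over 0.52 below them. The difference was 1.25 ± 0.15 (SE) (95% confidence interval 0.92 to 1.58), or 2.37-fold, with an adjusted p of 0.000342, and it passed in all 17 settings with an adjusted p of at most 0.00521. Adamts5, the other main aggrecanase, averaged 13.01 ± 0.17 in differentiated cells and 13.02 ± 0.18 in undifferentiated cells (SD, n = 3 each). Adamts1 averaged 15.03 ± 0.25 in differentiated cells and 14.96 ± 0.10 in undifferentiated cells (SD, n = 3 each). Their differences were −0.01 and 0.07, and both genes overlapped between groups.

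Within each array, the log2 distance of Adamts4 over Adamts5 shifted by 1.25 and that over Adamts1 by 1.18 (differentiated minus undifferentiated). These shifts follow from the Adamts4 difference itself and are a description: the smallest exact permutation p that 20 splits of 6 arrays allow is 0.1. Adamts20 had 8.78, 8.27 and 8.50 in differentiated cells, against 8.08, 7.99 and 8.26 in undifferentiated cells (difference 0.41, adjusted p 0.0887). Adamts8 had 8.92, 8.65 and 8.90 in differentiated cells, against 8.33, 8.10 and 8.90 in undifferentiated cells (difference 0.38, adjusted p 0.178). Undifferentiated replicate 3 stood inside the Adamts8 range of the differentiated cells, and 0.01 under the lowest differentiated array for Adamts20. Adamts15 lay within 0.5 of the random probes.

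Adamts13, the protease that cuts von Willebrand factor, was the other ADAMTS gene called. It had 9.37, 9.12 and 9.06 in differentiated cells, against 8.79, 8.51 and 8.77 in undifferentiated cells. Every differentiated array was above every undifferentiated one, by 0.50 ± 0.14 (SE) on average (adjusted p 0.0339), and the call held in 10 of 17 settings. Endothelial markers, which bear on a gene best known from blood vessels and liver, had 1 of 3 measured genes higher (Pecam1 by 0.45, adjusted p 0.0493, called in 3 of 17 settings), while Cdh5 was at or below the random probes on all arrays. Their summed linear intensity was 1142 to 1316 in differentiated cells and 902 to 1091 in undifferentiated cells. Whether the cultures, all of 1 cell line, held any endothelial cells was not tested.

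The other ADAMTS genes were not called. Adamts2, which removes the amino-terminal propeptide of fibrillar procollagens, had 13.62, 13.38 and 13.34 in differentiated cells, against 13.32, 13.09 and 12.71 in undifferentiated cells. All its differentiated arrays were above the undifferentiated ones, although by only 0.02 at the nearest, and the difference of 0.41 ± 0.17 (SE) had an adjusted p of 0.111. Adamts7, one of a pair of proteases that cut cartilage oligomeric matrix protein (COMP), had 10.35, 10.13 and 10.32 in differentiated cells, against 9.73, 9.95 and 10.07 in undifferentiated cells (adjusted p 0.0971). Its partner Adamts12 differed by −0.14. Of 5 further ADAMTS genes, Adamts19 was at the random probes and Adamts10 differed by 0.28.

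Adamts16 had 8.05, 7.86 and 7.98 in differentiated cells, against 7.08, 7.44 and 7.85 in undifferentiated cells (difference 0.51, adjusted p 0.0752). Adamts17 had 10.72, 10.79 and 10.74 in differentiated cells, against 9.96, 10.41 and 10.81 in undifferentiated cells (difference 0.36, adjusted p 0.197). Adamts18 had 8.94, 8.73 and 8.88 in differentiated cells, against 8.52, 8.45 and 8.59 in undifferentiated cells (difference 0.33, adjusted p 0.0865). Undifferentiated replicate 3 was the array nearest to the differentiated ones in all 3 genes, and above them in Adamts17. The ADAMTS-like genes encode matrix proteins without a protease domain, and 0 of 2 passed. Adamtsl2 had 10.49, 10.23 and 10.35 in differentiated cells, against 9.65, 9.93 and 10.16 in undifferentiated cells (difference 0.44, adjusted p 0.0703), and Adamtsl4 differed by 0.14.

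Of the 4 inhibitors, Timp3 was higher in differentiated cells and the other 3 did not pass. Without single arrays 0 of 4 passed in 5 of the 6 fits, and 2 without undifferentiated replicate 3. Timp3, which stays bound to the matrix and also blocks Adam17 and the aggrecanases, had 14.21, 14.23 and 14.17 in differentiated cells, against 13.68, 13.69 and 13.89 in undifferentiated cells. The differentiated arrays were within 0.06 of each other and lay above all undifferentiated ones, of which replicate 3 was the nearest. The difference was 0.45 ± 0.12 (SE) with an adjusted p of 0.0297. It passed in 11 of 17 settings. With the array number covariate, which sets the differentiated mean against undifferentiated replicate 3 alone, the difference was 0.32 and the call was lost.

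Timp1 had 12.44, 12.29 and 12.62 in differentiated cells, against 12.73, 12.48 and 12.15 in undifferentiated cells. Its groups overlapped throughout, with a difference of 0.00 ± 0.17 (SE) and a 95% confidence interval of −0.37 to 0.37. Timp2, which takes part in the activation of pro-MMP2, had 15.83, 15.78 and 15.74 in differentiated cells, against 15.59, 15.50 and 15.68 in undifferentiated cells. These values are close to those of the brightest feature on each array (15.83 to 15.95), and the difference of 0.20 ± 0.12 (SE) had an adjusted p of 0.265. Timp4 had 9.83, 9.86 and 9.82 in differentiated cells, against 9.44, 9.57 and 9.79 in undifferentiated cells, a difference of 0.24 ± 0.13 (SE) with an adjusted p of 0.221. The differentiated Timp4 arrays lay above the undifferentiated ones, and without undifferentiated replicate 3 the adjusted p was 0.0398.

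Enzyme and inhibitor changes were also set against each other within arrays, which removes any shift common to an array. The log2 distance of Mmp13 over Timp1 shifted by 2.07, over Timp3 by 1.62 and over Timp4 by 1.84 (differentiated minus undifferentiated). The distance of Mmp13 over Mmp14 shifted by 1.80 and over Mmp2 by 2.29. Adamts4 over Timp3 shifted by 0.80 and Adam17 over Timp3 by −0.90. They were computed for members already called, so they add no test to the differences above. Timp2 is left out here because it lay close to the brightest features. These are unequal changes of RNA signal, and no protein or enzyme activity was measured.

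**Figure D4:**
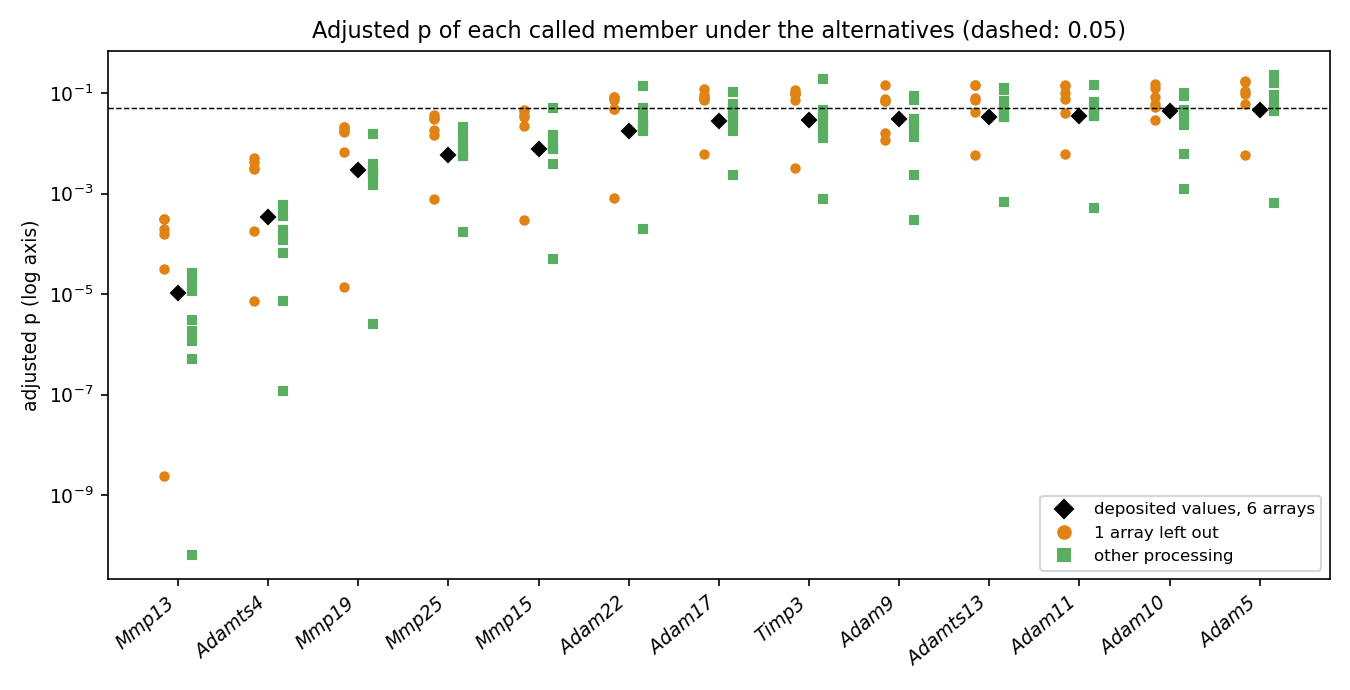
Adjusted p of the 13 called members, as deposited and in each alternative setting, on a log axis with the threshold of 0.05 as a line. Mmp13, Adamts4, Mmp19 and Mmp25 stay on the called side in all 17 settings, and the other called members cross the line in at least 1.

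Genes that activate, bind or inhibit these enzymes were read from a list of 28, of which 26 were measured: 5 were higher, 2 were lower and 19 did not pass, with a median difference of 0.12. The higher share was 19.2% and the lower share 7.69%, against 8.58% and 10.9% of all genes. Plau (urokinase, which activates plasminogen and through it pro-MMPs) had 8.50, 8.49 and 8.60 in differentiated cells, against 9.68, 9.86 and 9.26 in undifferentiated cells, a difference of −1.07 ± 0.16 (SE) (adjusted p 0.00145). Its receptor gene Plaur was higher by 0.56 ± 0.14 (SE) (adjusted p 0.0191), so the pair differed in direction. Thbs2 (thrombospondin 2, which carries MMP2 to uptake by LRP1) was lower, with a difference of −0.81 ± 0.13 (SE) (adjusted p 0.00252). Spock2, a matrix proteoglycan of the testican family, was higher by 0.97 ± 0.17 (SE) (adjusted p 0.00317), and Mrc2, an endocytic receptor for collagen fragments, by 0.82 ± 0.21 (SE) (adjusted p 0.0222). Rhbdf2 (iRhom2, which brings Adam17 to the surface) was higher by 0.59 ± 0.14 (SE) (adjusted p 0.0176), whereas Adam17 itself was lower. Plau, Thbs2 and Spock2 passed in all 17 settings, Mrc2 in 14, and Rhbdf2 and Plaur in 12. Without single arrays the list had 1 to 8 genes higher and 2 to 5 lower, in fits that called 7.83% to 45.0% of all genes.

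Of 30 matrix and cell surface substrates 29 were measured, and 5 were higher, 6 were lower and 18 did not pass, with a median difference of 0.05. Higher calls made up 17.2% and lower calls 20.7%, against 8.58% and 10.9% of all genes. The largest differences were in the growth factor genes Ereg and Areg, whose proteins Adam17 releases. Ereg (epiregulin) had 7.25, 7.58 and 7.71 in differentiated cells, against 9.83, 9.81 and 9.93 in undifferentiated cells, a difference of −2.34 ± 0.15 (SE) (adjusted p 3.22e-06). Areg (amphiregulin) had 8.13, 8.0 and 8.26 in differentiated cells, against 9.45, 9.15 and 8.89 in undifferentiated cells, a difference of −1.03 ± 0.16 (SE) (adjusted p 0.00175). Both were lower on every differentiated array. The Adam17 substrates Tgfa at 0.43 (adjusted p 0.0521), Tnf at 0.43 (adjusted p 0.0562) and Hbegf at 0.38 (adjusted p 0.116) did not pass. Tnfrsf1b, a tumour necrosis factor receptor gene whose protein Adam17 also cuts, was lower. Its difference was −0.48 ± 0.14 (SE) (adjusted p 0.0333), and it passed in 10 of 17 settings. Tnfrsf1a, Tnfsf11, Il6ra and Btc of the list differed by −0.26, −0.09, −0.01 and 0.10 and did not pass. The Adam10 substrate Cdh2 (N-cadherin) differed by −0.88 ± 0.12 (SE), Cd44 by −0.74 ± 0.15 (SE) and Vcam1 by −0.82 ± 0.14 (SE), with adjusted p of 0.000923, 0.00744 and 0.00323. Cdh11, the other cadherin gene of the list, was higher by 0.45 ± 0.14 (SE) (adjusted p 0.0441) and passed in 8 of 17 settings. Notch2 was higher by 0.68 ± 0.19 (SE) (adjusted p 0.0304) and passed in 14 of 17 settings, whereas Notch1 differed by −0.09 (adjusted p 0.801) and its groups overlapped. Dcn (decorin) was higher by 0.65 ± 0.13 (SE) (adjusted p 0.0061) and passed in all 17. Without single arrays the list had 1 to 8 genes higher and 5 or 6 lower, in fits that called 7.83% to 45.0% of all genes. The main collagenase substrates Col1a1 and Col1a2 did not pass and lay near the upper limit of the arrays. Of 3 chondrocyte markers measured, Acan (aggrecan, a substrate of Adamts4) was higher by 0.63 (adjusted p 0.0339), Sox9 was lower with a difference of −0.54 (adjusted p 0.0274), and Col2a1 lay within 0.5 of the random probes. Acan and Sox9 each passed in 10 of 17 settings. With the array number covariate the Acan difference, then taken from undifferentiated replicate 3 alone, was 0.21. Of the skeletal muscle markers 1 of 4 was higher (Ckm by 0.57, adjusted p 0.0307, called in 11 of 17 settings), with a summed linear intensity of 3806 to 4098 in differentiated cells and 2435 to 3529 in undifferentiated cells, and of the adipocyte markers 0 of 3 passed. Whether these cultures of 1 cell line held any such cells was not tested.

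Of 11 regulators of Mmp13 transcription, 2 were higher, 5 were lower and 4 did not pass, with a median difference of −0.21. That is 18.2% higher and 45.5% lower, against 8.58% and 10.9% of all genes. Fos and Fosb, AP-1 subunits, were higher by 0.92 ± 0.22 (SE) (adjusted p 0.017) and 0.64 ± 0.12 (SE) (adjusted p 0.00505). Fosl1 and Fosl2, further AP-1 subunits, were lower, with differences of −1.71 ± 0.23 (SE) (adjusted p 0.000668) and −0.86 ± 0.17 (SE) (adjusted p 0.00597). The AP-1 subunits thus did not move one way. Vdr, the receptor of the hormone given to all cultures, had 10.85, 11.11 and 10.30 in differentiated cells, against 12.77, 12.67 and 12.01 in undifferentiated cells, a difference of −1.73 ± 0.24 (SE) (adjusted p 0.000835). Ets1 was lower, with a difference of −1.34 ± 0.17 (SE) (adjusted p 0.000548). Runx2, which binds the RUNX letters printed above in osteoblasts, differed by 0.09 with an adjusted p of 0.658, and its groups overlapped. Jun, the fifth lower gene and also an AP-1 subunit, differed by −0.61 ± 0.18 (SE) (adjusted p 0.0414), passed in 9 of 17 settings and differed by −0.16 with the array number covariate. Fos passed in 14 settings, and Fosb, Fosl1, Fosl2, Vdr and Ets1 in all 17. Without single arrays the list had 1 or 2 genes higher and 4 to 7 lower, in fits that called 7.83% to 45.0% of all genes. Its median lay between −0.60 and 0.03, the higher value without undifferentiated replicate 1.

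**Figure D5:**
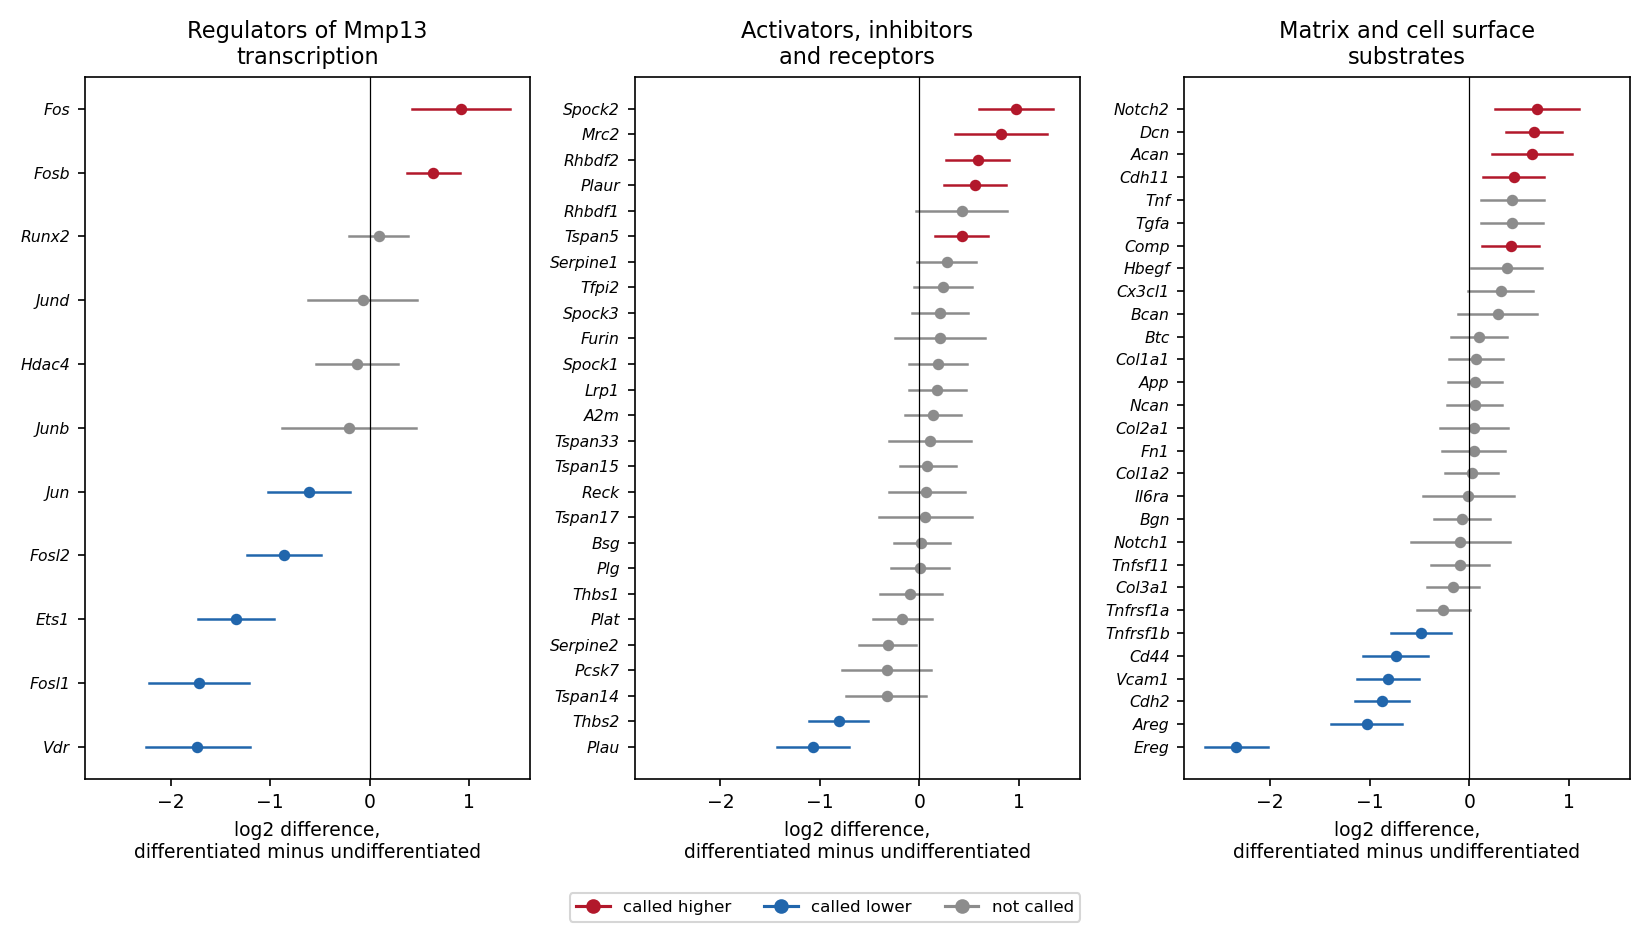
Differences (differentiated minus undifferentiated, log2 scale, 95% confidence intervals) of the measured genes in the lists of activators and inhibitors, substrates and Mmp13 regulators, with called genes marked. Ereg at −2.34, Vdr at −1.73 and Fosl1 at −1.71 are the lowest, and Spock2 at 0.97 and Fos at 0.92 are the highest.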

How the data were processed

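The authors deposited 1 linear intensity per feature for each of 6 single-colour (Cy3) arrays. The submitters' processing notes name RMA, a method that removes background, brings arrays to a common distribution and combines the probes of a feature. The RMA version and which arrays were treated together are not given in these sources. Log2 was taken of the deposited intensity, with no further scaling. Features were named by RefSeq transcript through a gene table (assembly GRCm38.p6, names and order only): 17849 of 42586 had a symbol, in 17298 genes. The brightest feature stood for each of the 467 genes with several. A deposited table of the series held the same values (largest difference 0).

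Groups come from the sample titles. All genes were fitted with limma 3.58.1 (lmFit, eBayes; R 4.3.3), with Benjamini-Hochberg adjustment over all genes, 2-sided, and called at an adjusted p under 0.05. Precision is limited by 3 arrays per group. A gene counted as at or below the random probes when all arrays of a group had it at or below their control feature. Promoter sequences are RefSeq's (GRCm38.p6). Every member could be named. Values on each array are given for called members, for members whose call changes without 1 array and for Mmp2, Mmp9, Mmp14 and the Timp genes, and up to 6 called genes of each related list are described, by size. Dcn, Acan, Cdh11, Jun, Notch1, Tgfa, Tnf, Hbegf, Tnfrsf1b, Tnfrsf1a, Tnfsf11, Il6ra and Btc were added after their values were seen. The members and lists were chosen with earlier results of these data known. Alternatives, counted per gene as up to 17 settings apart from the main one, were other scalings, filters on dim genes and the replicate number or the start of the array number in the fit. The others were array weights, another prior, another treatment of features, and leaving out each array. Adjustment over all features in place of genes was run as well and is among the 17. The fits were tested on simulated data.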

Additional observations from a re-analysis of the deposited data

How the results depend on the processing

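Of the 77 members, 9 were called higher and 4 lower as deposited. The higher count was 28 with array weights, where 48.7% of all genes and 42.9% of the members were called, and between 4 and 23 when single arrays were left out. The lower count was 1 after quantile normalization, 1 after cyclic loess and between 1 and 5 when single arrays were left out. Members called with 2-fold or more numbered 2 or 3 under every alternative run. Of the 66 measured genes in the lists of activators, substrates and regulators 25 were called, and between 14 and 36 without single arrays. Of all genes 19.5% were called as deposited, and 7.83% to 45.0% without single arrays. With a margin of 0.5 over the random probes, 13 members in place of 8 counted as below it in both groups. No alternative turned the direction of a called member. With the replicate number as a block, 9 members were higher and 4 lower, with Adam5 lost and Adam7 gained, and 23 related genes were called. The deviations of same-numbered arrays correlated at 0.0177, 0.133 and 0.0656, so the numbers were not taken to pair the cultures. The start of the array number in the file names is shared by all differentiated arrays and undifferentiated replicate 3. With it as a covariate, each difference was the differentiated mean minus undifferentiated replicate 3 alone. It was 1.80 for Mmp13, 1.51 for Adamts4, −0.61 for Mmp19, 0.46 for Mmp15 and 0.32 for Timp3. The causes of these shifts were not tested. Signal over background limits the 13 dim members, and image date follows the groups.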
